A study of Mus musculus with 3 samples.

Results

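The retinas of newborn mice that lack *Sstr2* were compared with those of their heterozygous littermates, cell type by cell type. The members are 4 of the 18 retina and explant samples in the series: the 2 knockout (*Sstr2* -/-) and the 2 heterozygous (*Sstr2* +/-) retinas of the library made at postnatal day 0 (P0), chosen by the genotype and retina that the authors recorded for each cell. They contributed 4499 of the 5706 cells of that library, 1087 and 1254 from the heterozygous retinas (Het 1 and Het 2) and 1018 and 1140 from the knockouts (KO 1 and KO 2). The remaining 1207 cells came from a single *Sstr2* +/+ retina, which is given only as a reference, since 1 retina has no spread. All 5 retinas were littermates, came from a C57BL/6NCrl line outbred to CD1 (strain label C57BL/6 / CD1) and received no treatment, and the mutation is an engineered deletion carried by every cell of the animal. The part of *Sstr2* that was deleted, and the number of eyes behind each sample, are not given in the sources used here.

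*Sstr2* encodes a receptor for somatostatin, a secreted peptide, and signals through inhibitory G proteins that lower cyclic AMP. The newborn retina still holds dividing primary progenitors, which renew themselves, and neurogenic progenitors, which are in their last divisions and transcribe proneural factors. Ganglion cells and most amacrine cells are already born at this age, whereas rod photoreceptors are being made in large numbers.

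In MULTI-seq, lipid-bound barcodes mark the cells of each retina, so all 5 retinas shared 1 library of 3′ transcript ends. Transcripts were counted by unique molecular identifiers (UMIs). The retinas held 8822880 to 10793649 UMIs, with a median of 7258.5 to 8541 per cell. Counts were summed per retina and deposited cell type and are given as CPM, the UMIs of a gene relative to all UMIs of that type in that retina, scaled to 1e+06. Pairs of values below name Het 1 and Het 2 first and KO 1 and KO 2 after them. The summed markers of each type fitted its label in every retina. Ganglion cell markers, for example, added up to 10896 to 12689 CPM in ganglion cells and to at most 431 CPM in any other type. Markers of other cell types were low or uneven. Endothelial markers summed to 154 to 207 CPM in primary progenitors and horizontal cell markers to 156 to 382 CPM in amacrine cells of all retinas, and erythrocyte markers stayed at or below 4.47 CPM in every type. Microglial markers reached 102 CPM in the primary progenitors of Het 1 and lens markers 210 CPM in the neurogenic progenitors of KO 2. *Xist*, which marks female cells, was high in Het 1 and KO 2 and near 0 in Het 2 and KO 1, so each genotype held 1 retina of either kind. Groups that do not overlap were common: both knockouts lay above or below both heterozygous retinas for 32.2% of genes in primary progenitors, 33.1% in neurogenic progenitors, 36.9% in photoreceptor precursors, 32.1% in amacrine cells, 34.2% in ganglion cells and 33.6% over all cells. With 2 retinas against 2, p-values take in no spread beyond these littermates, and a single value cannot reach an exact permutation p below 0.333. The p-values of single genes come from edgeR, which also borrows the spread of other genes, to an extent that differs between cell types. They therefore do not rest on the spread of that gene between the retinas alone.

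*Sstr2* transcripts were not lost from the retinas labelled knockout. In neurogenic progenitors, the type that used the gene most, *Sstr2* (chromosome 11, 113619342 to 113626028, GRCm38) stood at 189 and 248 CPM in Het 1 and Het 2 against 294 and 375 CPM in KO 1 and KO 2. Both knockouts were above both heterozygous retinas, and the wild type was lowest with 112 CPM. The log2 fold change of knockout against heterozygous was 0.62 (SE 0.14), which did not pass the adjustment over all genes (adjusted p = 0.892 by the quasi-likelihood test of edgeR, after Benjamini and Hochberg). The call depended on the fit: with retinas paired by *Xist* level as a block, *Sstr2* passed at the same log2 fold change of 0.62 (adjusted p = 0.000193), and it also passed without Het 2 (0.83, adjusted p = 0.0043) and without KO 1 (0.77, adjusted p = 0.000465). Counts of 3′ ends do not check the genotype, because transcripts that lack the deleted part can still be counted.

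The share of neurogenic progenitors with a *Sstr2* UMI was 43.1% and 45.8% against 40.0% and 55.5%, so that the genotypes overlapped. Thinned to 3000 UMIs per cell, the shares were 25.9%, 35.1%, 27.9% and 40.3%, in the same order and overlapping as well. Only 1.14 to 2.04% of primary progenitors in these 4 retinas held a *Sstr2* UMI before thinning, at median depths of 8004 to 10017 UMIs against 6460 to 7643 in neurogenic progenitors. In primary progenitors *Sstr2* stood at 5.34 and 3.84 against 4.16 and 2.87 CPM, without a separation of the groups. Amacrine cells had 8.39 and 14.5 against 24.4 and 14.1 CPM, where the groups also overlapped. Of the 7 genes of the somatostatin system that were looked for, 3 were in the table. *Cort*, which encodes the related peptide cortistatin, had at most 10 UMIs in any type of any retina, and *Sstr5* at most 2.

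The composition of the retina did not differ detectably. Primary progenitors made up 49.7% and 48.9% of heterozygous against 49.1% and 47.5% of knockout cells, and the groups overlapped. Photoreceptor precursors made up 23.2% and 19.3% against 17.5% and 21.6%, again with overlap. Amacrine cells made up 14.7% and 18.5% against 18.1% and 19.2%. For neurogenic progenitors the shares were 10.7% and 12.4% against 12.8% and 10.4%. Ganglion cells were the rarest type, with 1.75% and 0.957% against 2.55% and 1.32%, or 19 and 12 against 26 and 15 cells. The difference between the genotype means ran from -1.71 percentage points in photoreceptor precursors to 2.03 in amacrine cells (2-sided exact permutation p = 0.667 for 4 of the types and 1 for neurogenic progenitors, adjusted p = 0.833 and 1). In each type the 2 retinas of at least 1 genotype differed by more than the genotype means did, as the plot of shares by retina shows.

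**Figure D1:**
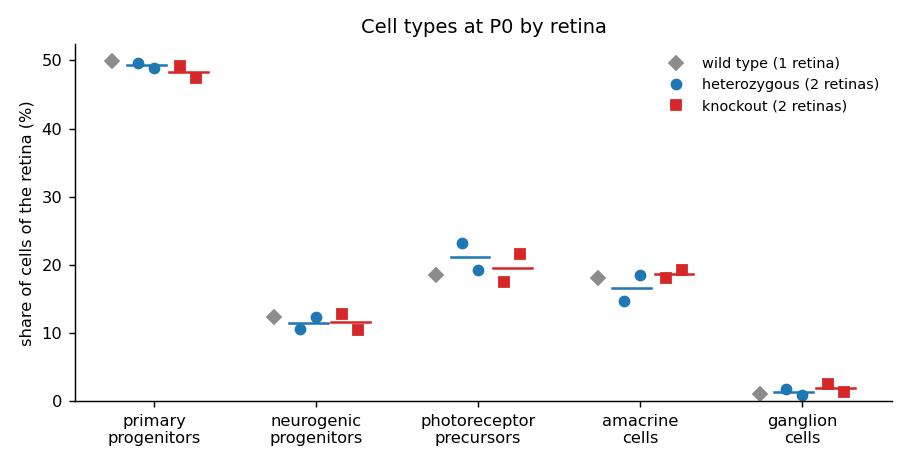
Share of each deposited cell type among the cells of a retina, in percent (vertical axis), for the 5 P0 retinas. Points are retinas, coloured by genotype, and short lines mark the means of the heterozygous and knockout retinas. The genotypes overlap in every type, for instance with 17.5% and 21.6% photoreceptor precursors in the knockouts and 23.2% and 19.3% in the heterozygous retinas.

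A single gene, *Gm8797*, was called in every cell type. *Gm8797* is a 1-exon gene that resembles polyubiquitin genes, which encode head-to-tail copies of ubiquitin. It was the only gene past the adjusted threshold in primary progenitors (1 of 11348 genes, 0.00881%) and in neurogenic progenitors (1 of 8126 genes, 0.0123%). It stood at 415 and 219.9 CPM in primary progenitors of Het 1 and Het 2 against 17.5 and 19.7 CPM in KO 1 and KO 2. In neurogenic progenitors it stood at 457 and 249 against 23.7 and 18.8 CPM. Het 1 was the highest retina and both knockouts were far below both heterozygous retinas in each case. The log2 fold change was -4.09 (SE 0.30, adjusted p = 0.00578, edgeR) in primary and -4.03 (SE 0.31, adjusted p = 9.9e-05) in neurogenic progenitors. In the other 3 types it was -4.01 in photoreceptor precursors, -4.15 in amacrine cells and -4.09 in ganglion cells, with adjusted p-values of 0.00113, 0.000352 and 2.42e-16. Over all 5 types, heterozygous retinas held 219.9 to 474 CPM, knockouts 14.2 to 24.6 CPM and the wild type 221 to 277 CPM. Wild-type and Het 2 levels lay close together, and Het 1 held more than either. In primary progenitors *Gm8797* was not called without KO 2 (adjusted p = 0.0574).

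*Gm8797* and *Ubb*, a polyubiquitin gene that all cells use, differ by few bases where 3′ counting takes its reads. *Gm8797* lies on chromosome 3 (5750806 to 5751295, plus strand, GRCm38, GENCODE M21), and *Ubb* on chromosome 11 (62551171 to 62553213, plus strand). Both lines below show the coding strand over 228 bases of the open reading frame, chr3:5750904-5751131 and the last ubiquitin repeat at chr11:62552830-62553057, in lower case with the differing bases in capitals, since they show how little separates the reads of these genes.
Gm8797: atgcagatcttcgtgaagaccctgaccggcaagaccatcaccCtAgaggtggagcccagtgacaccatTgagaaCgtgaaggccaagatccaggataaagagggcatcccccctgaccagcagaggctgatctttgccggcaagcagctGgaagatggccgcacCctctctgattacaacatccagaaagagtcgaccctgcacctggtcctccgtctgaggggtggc
Ubb: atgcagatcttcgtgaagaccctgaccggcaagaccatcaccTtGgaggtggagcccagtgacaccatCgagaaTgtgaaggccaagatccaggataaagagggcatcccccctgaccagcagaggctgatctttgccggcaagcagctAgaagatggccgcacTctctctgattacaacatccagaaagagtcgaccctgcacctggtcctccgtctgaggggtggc
These stretches differ at 6 of 228 bases (97.4% identical). The 156 aligned columns that follow them towards the 3′ end hold 0 mismatches and 1 gap. Reads can therefore be shared between these genes, and how the counting assigned them was not tested.

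*Ubb* was not called in any type, but it was higher in both knockouts than in both heterozygous retinas in all 5 types, opposite to *Gm8797*. In primary progenitors it stood at 2526 and 2650 against 2922 and 2877 CPM, a log2 difference of 0.16 (SE 0.05, adjusted p = 0.997, edgeR). In photoreceptor precursors *Ubb* stood at 2729 and 2933 against 3540 and 3570.0 CPM, a log2 difference of 0.34 (SE 0.07, adjusted p = 0.276). The sum of *Gm8797* and *Ubb* was 2941 and 2870.2 against 2939 and 2897 CPM in primary progenitors and 3509 and 3392 against 3432 and 3731 CPM in ganglion cells, with overlap in both. It was higher in both knockouts in photoreceptor precursors (3186 and 3156 against 3564 and 3588 CPM), amacrine cells (3476 and 3350.5 against 3543 and 3687 CPM) and neurogenic progenitors (3278 and 3220.4 against 3295 and 3437 CPM). The wild-type sum was the highest of all retinas in primary progenitors (2970 CPM), neurogenic progenitors (3497 CPM) and amacrine cells (3795 CPM). In photoreceptor precursors and ganglion cells it was 3477 and 3562 CPM, below KO 2. The plot of *Gm8797* and of the sum by retina shows both.

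**Figure D2:**
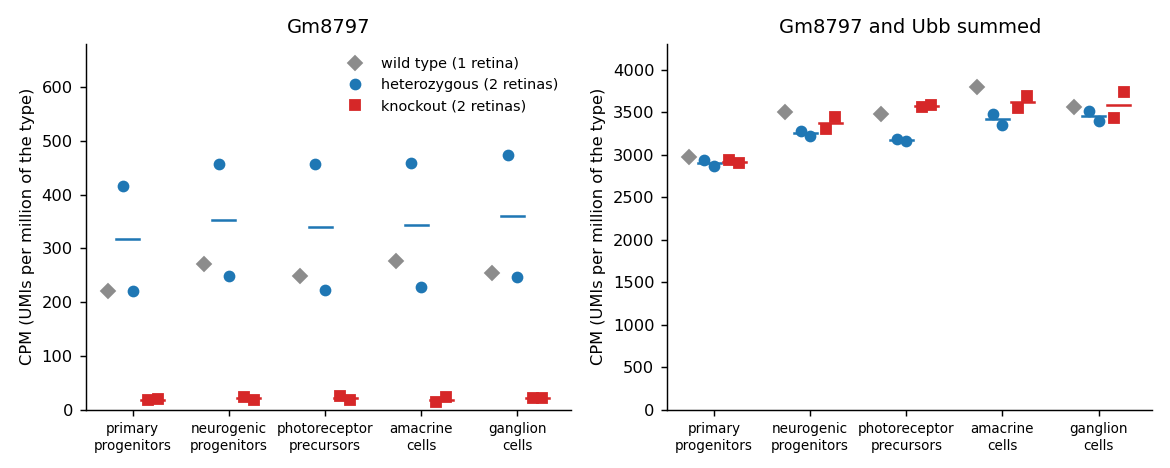
Left, *Gm8797* in CPM (vertical axis) in each cell type and P0 retina, coloured by genotype. Right, the sum of *Gm8797* and *Ubb* in CPM in the same cells, with both axes starting at 0. The knockouts lie at 14.2 to 24.6 CPM of *Gm8797* in every type, below all heterozygous (219.9 to 474) and wild-type (221 to 277) values. The sums overlap between the genotypes in primary progenitors and ganglion cells and are higher in both knockouts in the other types.

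The *Gm8797* difference was also found in separate animals, whereas the opposite difference of *Ubb* was not. At P14, when the retina is nearly mature, 304 to 740 cells per heterozygous or knockout retina were available. Over all P14 cells *Ubb* stood at 3024 and 3174 against 2876 and 3305 CPM, with overlap (log2 difference -0.07, SE 0.15). The sum of *Gm8797* and *Ubb* was 3253 and 3425 against 2911 and 3343 CPM, also with overlap. *Gm8797* stood at 229 and 251 against 34.8 and 38.1 CPM over all P14 cells, with no overlap. Unlike at P0, the wild type was the highest retina, with 463 CPM. The log2 fold change was -2.78 (SE 0.15, adjusted p = 2.84e-05, edgeR). It was the only gene called of 11670 tested (0.00857%), and 959 genes (8.22%) had an unadjusted p under 0.05. It was not called without Het 1 (adjusted p = 0.341) or without Het 2 (adjusted p = 0.919), where the remaining arm held 1 retina.

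Apart from *Gm8797*, no gene of the progenitors passed the threshold. In primary progenitors 405 of 11348 genes (3.57%) had an unadjusted p under 0.05, and in neurogenic progenitors 332 of 8126 (4.09%). The largest rises without overlap in primary progenitors were those of 2410018L13Rik, *Slc15a2*, which encodes a peptide transporter, and *Adcy2*, which encodes an adenylyl cyclase. 2410018L13Rik stood at 1.03 and 1.83 against 6.57 and 6.51 CPM in primary progenitors, a log2 difference of 2.18 (SE 0.38, adjusted p = 0.619, edgeR). *Adcy2* stood at 2.76 and 3.48 against 10.7 and 7.85 CPM (log2 difference 1.56, adjusted p = 0.732). The largest difference downwards after *Gm8797* was that of *Gm21887*, at 12.7 and 3.29 against 0.219 and 2.30 CPM (adjusted p = 0.997). In neurogenic progenitors the largest were *Pbx3*, which encodes a homeodomain protein, at 5.80 and 9.75 against 25.7 and 21.8 CPM (log2 difference 1.58, adjusted p = 0.976), and *Oma1*, which encodes a mitochondrial protease, at 21.3 and 30.9 against 8.88 and 7.93 CPM (log2 difference -1.63, adjusted p = 0.892). None of these named differences was past the threshold in the comparison of 2 against 2 retinas.

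Among genes of progenitor identity none was called in progenitors. *Ccnd1*, the cyclin that drives entry into S phase in these cells, stood at 3702 and 3922 against 3996 and 3840 CPM in primary progenitors (log2 difference 0.03, SE 0.05). *Hes6*, which opposes Hes1 and favours neurogenesis, stood at 1817 and 1646 against 1570 and 1674 CPM in neurogenic progenitors (log2 difference -0.09, SE 0.07). *Gas1*, a co-receptor of the hedgehog pathway that drives progenitor division, had the lowest p of the hedgehog list, at 382 and 349 against 246 and 230.5 CPM in primary progenitors, with 338 CPM in the wild type. Both knockouts were lowest, and the log2 difference of -0.62 (SE 0.08) did not pass the adjustment (adjusted p = 0.256, edgeR). Of the 24 S phase genes, 6 were higher in knockout primary progenitors at an unadjusted p under 0.05, against 1.69% of all genes tested, and 0 were lower. Of the 27 genes of G2 and mitosis, 7 were lower there, against 1.88% of all genes, and 0 higher. None of these genes was called, and the median log2 differences were 0.145 and -0.113 (all genes tested, -0.00227). In neurogenic progenitors 5 of 24 S phase genes were higher, against 2.09% of all genes, and 0 lower. Of the 27 genes of G2 and mitosis 3 were higher there and 2 lower, against 4.09% of all genes in either direction.

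Photoreceptor precursors held more differences. Of 9683 genes, 6 were called (0.062%), 2 higher (0.0207%) and 4 lower (0.0413%) in the knockouts, and 699 (7.22%) had an unadjusted p under 0.05. *Gngt2*, the cone transducin gamma subunit of phototransduction, and *Ypel3* rose, whereas *Gm8797*, *Hes1*, *Ptn* and *Crym* fell. *Hes1* encodes the Notch effector that keeps progenitors undifferentiated, *Ptn* the growth factor pleiotrophin and *Crym* a thyroid hormone binding protein.

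*Gngt2* stood at 1362 and 1412 against 2194 and 2891 CPM, with 1559 CPM in the wild type. Both knockouts were above the other 3 retinas, and the log2 fold change was 0.89 (SE 0.11, adjusted p = 0.0158, edgeR). *Ypel3* stood at 277 and 327 against 488 and 516 CPM. The knockouts were again above the heterozygous retinas, but the wild type, at 447 CPM, lay nearer to the knockouts (log2 fold change 0.75, SE 0.11, adjusted p = 0.0413). *Ypel3* was not called without Het 1 (adjusted p = 0.0842).

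*Hes1* stood at 273 and 249.7 against 125 and 145 CPM in precursors. The groups did not overlap, and the wild type lay between them at 180 CPM (log2 fold change -0.93, SE 0.11, adjusted p = 0.0158, edgeR). *Ptn* stood at 181 and 140 against 73.9 and 76.4 CPM (log2 fold change -1.08, SE 0.15, adjusted p = 0.0351). *Crym* stood at 251 and 177 against 103 and 95.2 CPM (log2 fold change -1.10, SE 0.16, adjusted p = 0.0413). The wild type had 101 CPM of *Ptn* and 130 CPM of *Crym* and lay nearer to the knockout mean for 4 of the 6 called genes, against 50.2% of all genes tested in this type.

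Many genes of dividing progenitors were lower in the knockout precursors at an unadjusted p, although only *Hes1* passed the adjustment. At an unadjusted p under 0.05, 15 of the 27 genes of G2 and mitosis were lower and 0 higher, against 3.78% of all genes tested lower and 3.44% higher, and their median log2 difference was -0.70 (all genes, -0.000835). Their summed level was 3312 and 2484 against 2447 and 1518 CPM, so that Het 2 and KO 1 lay close together. Of the 24 S phase genes 8 were lower and 0 higher, with a median of -0.47. Of the 10 primary progenitor genes, which include *Hes1*, 6 were lower and 1 was higher, with a median of -0.49. *Hes5*, another Notch effector, stood at 324 and 364 against 225 and 201.2 CPM (adjusted p = 0.077, edgeR) and *Ccnd1* at 1357 and 1130 against 930 and 790 CPM (adjusted p = 0.276).

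Part of the cells labelled photoreceptor precursors carried progenitor transcripts. Cells with UMIs of 3 or more of the 8 primary progenitor markers made up 34.1% and 35.1% of them in Het 1 and Het 2 against 22.5% and 19.9% in KO 1 and KO 2, or 86 and 85 against 40 and 49 cells. The shares did not overlap, the wild type lay between them at 28.1%, and the difference was -13.4 percentage points (exact permutation p = 0.333, 2-sided, the smallest that 2 against 2 retinas allow). These cells were large, with medians of 10762 to 13808.5 UMIs in these 4 retinas, against 3699 to 4161 in the remaining precursors. They held 58.8% and 58.5% against 42.9% and 40.2% of all UMIs of the type. With every cell reduced to 2000 UMIs, which dropped 1 or 2 cells of each retina, the shares were 20.0% and 15.8% against 10.2% and 9.02%. Of the 918 precursors of the 4 retinas, 67 held exactly 3 markers and 215 exactly 2, so the limit of 3 cuts through a range. Exactly 2 markers were held by 49 and 46 against 49 and 71 precursors, out of 252 and 242 against 178 and 246. The knockouts thus held no fewer cells with exactly 2 markers, and the size of the difference in share depends on the limit.

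Cells on both sides of the limit carried photoreceptor transcripts. The 7 photoreceptor markers summed to 2287 to 3072 CPM in the cells with 3 or more progenitor markers and to 5199 to 5729 CPM in the others, over the 4 retinas. The genes of G2 and mitosis summed to 3095 to 5387 CPM in the former and to 356 to 458 CPM in the latter. The plot of progenitor-marker cells gives the shares, and the part of doublets or of free RNA in them was not tested.

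**Figure D3:**
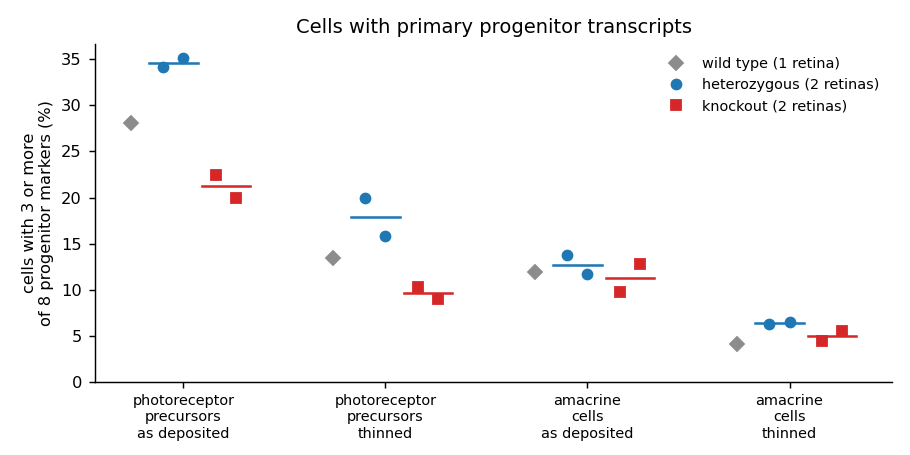
Photoreceptor precursors with UMIs of 3 or more of 8 primary progenitor markers, and amacrine cells with the same, as a share of the cells of the type in percent (vertical axis), as deposited and with each cell thinned to a fixed number of UMIs. Points are P0 retinas, coloured by genotype, and lines are genotype means. The share among precursors is 34.1% and 35.1% (Het 1, Het 2) and 22.5% and 19.9% (KO 1, KO 2), whereas it overlaps among amacrine cells as deposited.

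Without these cells *Hes1*, *Ptn* and *Crym* were no longer called, and *Gngt2* and *Ypel3* still were. Within the cells left out, *Hes1* stood at 458 and 422 against 278 and 359 CPM. *Ptn* stood there at 297 and 226 against 168 and 176 CPM and *Crym* at 421 and 299.7 against 228 and 221 CPM. Each was lower in both knockouts within these cells too, which was not tested. In the remaining precursors *Hes1* had 8.40 and 6.40 against 9.96 and 1.21 CPM, and *Crym* 9.60 and 5.12 against 9.96 and 10.9 CPM. *Hes1* overlapped between the genotypes, *Crym* was slightly higher in the knockouts, and both had too few counts to be tested. *Ptn* had 15.6 and 19.2 against 3.32 and 9.65 CPM, a log2 difference of -1.28 (SE 0.53) without overlap that was not called (adjusted p = 0.815, edgeR). Of the genes of G2 and mitosis, 4 were left to test, of which 0 were lower and 1 was higher at an unadjusted p under 0.05, and none of the 10 S phase genes left had such a p. In the primary progenitor list 3 of the 5 genes left were then higher at such a p and 0 lower, with a median of 0.55. The list summed to 467 and 495 against 626 and 656 CPM. It contains the 8 markers by which the cells were left out, so its values here depend on that choice. They are no separate result. Of all 7634 genes tested in these cells, 451 had such a p in either direction. *Gngt2* stood at 2302 and 2095 against 3017 and 3796 CPM in these cells, both knockouts above (log2 fold change 0.65, SE 0.10, adjusted p = 0.0219). *Ypel3* stood at 415 and 422 against 616 and 630 CPM, also without overlap (log2 fold change 0.59, SE 0.11, adjusted p = 0.0431). *Gm8797* stayed called as well. The alternative was added after the data were seen. Without the 5% of cells with the most UMIs, a separate alternative, *Gngt2* (adjusted p = 0.0631, edgeR) and *Ypel3* (adjusted p = 0.0992) were not called, at log2 differences of 0.89 and 0.74.

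In these marker-poor precursors 9 of 7634 genes were called (0.118%), 6 higher and 3 lower in the knockouts, and the 6 beyond those already named were noticed after their values were seen. *Opn1sw*, the short-wave cone opsin, stood at 237 and 269 against 400 and 433 CPM, with both knockouts above (log2 fold change 0.74, SE 0.11, adjusted p = 0.0218, edgeR). *Atoh7*, a proneural factor, stood at 69.6 and 73.0 against 139 and 142 CPM (log2 fold change 1.00, adjusted p = 0.0224), but the wild type was above both at 202 CPM. *Dusp26*, a phosphatase gene, stood at 54.0 and 83.2 against 136 and 170 CPM (adjusted p = 0.0224). *Pik3ip1* had 0 UMIs in either heterozygous retina and 11 and 13 in the knockouts, so it met the filter on low counts through the knockouts alone. The lower ones were *Pde6g*, the rod phosphodiesterase gamma subunit, at 670 and 552 against 372 and 373 CPM (log2 fold change -0.70, adjusted p = 0.0268), and *Sox11* at 235 and 261 against 116 and 150 CPM (log2 fold change -0.86, adjusted p = 0.0224). The wild type, with 354 CPM of *Opn1sw*, 133 CPM of *Dusp26* and 384 CPM of *Pde6g*, lay nearer to the knockouts for these genes. With 203 CPM of *Sox11* and 5.52 CPM of *Pik3ip1* it lay nearer to the heterozygous retinas.

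The transcription factors and other general genes of the photoreceptor list were not called. Of the 11 genes of the photoreceptor list, 10 could be tested and none was called in precursors. *Neurod1*, a basic helix-loop-helix factor of photoreceptors, was the only 1 at an unadjusted p under 0.05, at 1976 and 2137 against 2407 and 2684 CPM over all precursors (log2 difference 0.32, SE 0.08, adjusted p = 0.403, edgeR). *Otx2*, which specifies the fate, stood at 704.5 and 839 against 864 and 819 CPM with overlap. *Crx*, which acts downstream of it, stood at 252 and 249 against 280 and 283 CPM (adjusted p = 0.749). Without the progenitor-marker cells 0 of the 10 genes had an unadjusted p under 0.05, and their median log2 difference was 0.0138. In primary progenitors, 4 of the 8 genes tested were lower at such a p and 0 higher, against 1.88% of all genes lower. The list was low there, with sums of 97.8 and 122 against 84.5 and 69.3 CPM. Over all cells 5 of 10 were lower and 0 higher, against 4.88% of all genes in either direction. None of these was called. The plot of precursor genes shows *Gngt2*, *Ypel3*, *Hes1*, *Ptn* and *Crym* by retina.

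**Figure D4:**
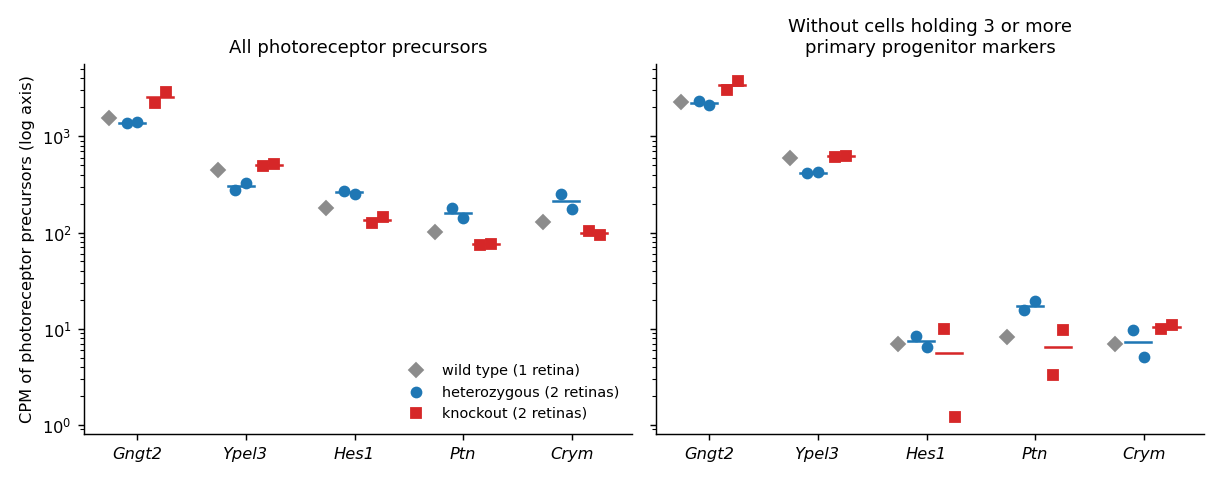
CPM on a log axis of 5 genes called in photoreceptor precursors, in all precursors (left) and without cells holding 3 or more primary progenitor markers (right). Points are P0 retinas, coloured by genotype, and lines are genotype means. *Gngt2* and *Ypel3* are higher in both knockouts in either panel, whereas *Hes1*, *Ptn* and *Crym* are lower in both knockouts on the left and fall to 1.21 to 19.2 CPM in all retinas on the right.

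In amacrine cells, inhibitory interneurons of the inner retina, 4 of 9559 genes were called (0.0418%). *Gm8797*, *Fabp7* and *Hes1* fell (0.0314% of genes) and *Isl1* rose (0.0105%), and 419 genes (4.38%) had an unadjusted p under 0.05. *Fabp7* encodes a fatty acid binding protein of progenitors and glia, and *Isl1* a homeodomain factor of ganglion cells and of starburst amacrine cells. *Fabp7* stood at 348 and 416 against 211 and 160 CPM (log2 fold change -1.04, SE 0.13, adjusted p = 0.014, edgeR). *Hes1* stood at 65.7 and 52.6 against 16.3 and 21.4 CPM (log2 fold change -1.61, SE 0.23, adjusted p = 0.0344). *Isl1* stood at 11.9 and 18.8 against 56.2 and 46.8 CPM (log2 fold change 1.72, SE 0.25, adjusted p = 0.0344). No groups overlapped, and the wild type, with 279 CPM of *Fabp7*, 17.8 CPM of *Hes1* and 32.1 CPM of *Isl1*, was nearer to the knockouts for 2 of the 4 genes, *Fabp7* and *Hes1*, against 50.7% of all genes.

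Few cells carried these transcripts. All 17 *Isl1* UMIs of Het 1 came from 1 amacrine cell, the 35 of Het 2 from 2 cells, and the 83 and 83 of the knockouts from 4 cells each. *Hes1* UMIs were found in 21 and 22 against 13 and 16 amacrine cells, and *Fabp7* UMIs in 34 and 47 against 34 and 41. Cells with 3 or more progenitor markers made up 13.8% and 11.6% of heterozygous and 9.78% and 12.8% of knockout amacrine cells, shares that overlapped (exact permutation p = 0.667). With every cell reduced to 3000 UMIs they were 6.25% and 6.47% against 4.42% and 5.48%, without overlap (exact permutation p = 0.333). Within these marker-holding cells, as deposited, *Hes1* stood at 293 and 270 against 104 and 91.2 CPM, without overlap. *Fabp7* stood there at 712 and 1780 against 876 and 378 CPM and *Isl1* at 0 and 0 against 0 and 84.5 CPM. Without the marker-holding cells only *Gm8797* was called among 9057 genes (0.011%). *Fabp7* then stood at 256 and 112 against 129 and 116 CPM, *Hes1* at 8.75 and 3.94 against 5.33 and 7.45 CPM, and *Isl1* at 14.9 and 23.0 against 63.2 and 39.3 CPM (adjusted p = 0.569, edgeR). Only *Isl1* kept the groups apart.

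The immediate early genes, whose transcription follows stimulation and also tissue dissociation, were lower in knockout amacrine cells without being called. At an unadjusted p under 0.05, 6 of the 10 tested were lower, against 2.56% of all genes tested, and 0 higher, with a median log2 difference of -0.55. *Junb*, which encodes a subunit of the AP-1 transcription factor, stood at 86.0 and 98.1 against 42.7 and 55.8 CPM (log2 difference -0.88, SE 0.16, adjusted p = 0.19, edgeR), and *Fosb*, another subunit, at 21.7 and 30.6 against 7.45 and 10.7 CPM (adjusted p = 0.37). Without the progenitor-marker cells 5 of 9 were lower at such a p, which 310 of all 9057 genes tested had in either direction. Among the amacrine genes themselves, *Meis2* stood at 1795 and 1863 against 1852 and 1865 CPM and *Pax6* at 1223 and 1289 against 1346 and 1422 CPM, and none of the 10 tested was called.

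Ganglion cells, the projection neurons of the retina, had the most calls, 19 of 6091 genes (0.312%), 8 higher (0.131%) and 11 lower (0.181%), on the fewest cells. An unadjusted p under 0.05 was found for 362 genes (5.94%), a smaller share than the 7.22% of photoreceptor precursors. Numbers of calls cannot be compared directly between types, since edgeR borrowed spread from other genes to a differing extent. Each retina held 12 to 26 of them, with medians of 24117 to 28722 UMIs. *Igf1*, which encodes insulin-like growth factor 1, and *Pcp4*, which encodes a calmodulin-binding peptide, had the lowest p-values among the rises. *Igf1* stood at 43.8 and 0 against 207 and 317 CPM (log2 fold change 3.24, SE 0.33, adjusted p = 9.07e-10, edgeR). *Igf1* was not called by DESeq2, and its log2 fold change ran from 2.56 to 9.96 when 1 retina was left out. Het 2 held no *Igf1* UMI, and the UMIs of the other retinas came from 6 cells in Het 1 and from 11 and 6 in the knockouts. *Igf1* met the filter on low counts only with the knockouts, where it was high, so its p is no separate support. *Pcp4* stood at 344 and 240 against 794 and 945 CPM (log2 fold change 1.54, SE 0.16, adjusted p = 9.07e-10). The wild type was lowest with 108 CPM, and 293 of the 423 *Pcp4* UMIs of KO 2 came from 1 cell.

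Other higher genes were close to absent in the heterozygous retinas. *Mgarp*, which encodes a mitochondrial protein, had 0 and 1 against 56 and 20 UMIs, a ratio of 52.4 relative to all UMIs (95% counting interval 9.12 to 2096, adjusted p = 3.58e-06, edgeR). *Ctxn3*, which encodes a small membrane protein, had 0 and 0 against 15 and 10 UMIs, which makes it at least 5.74-fold higher against 3 counts over the heterozygous group (adjusted p = 0.0188). Like *Mgarp*, it met the filter on low counts only through the knockouts, where it was high, so its p is no separate support. *Ctxn3* was not called by DESeq2, with all 5 retinas in the fit (adjusted p = 0.0765), or without Het 1, Het 2 or KO 2 (adjusted p = 0.335 to 0.462), and without KO 1 it was not tested. *Trhde*, which encodes the enzyme that degrades thyrotropin-releasing hormone, stood at 5.97 and 3.38 against 29.5 and 67.0 CPM (adjusted p = 0.00729). *Vax2os*, next to the gene of the ventral retinal factor Vax2, stood at 9.96 and 6.75 against 36.6 and 62.5 CPM (adjusted p = 0.0237). *Trhde* and *Vax2os* also met the filter on low counts only through the knockouts, so their p-values are no separate support either. None of these groups overlapped, and their transcripts lay in 2 to 11 cells per knockout retina.

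The lower genes included *Zic1*, *Alcam*, *Cwc22*, *Mt3* and *Id2*. *Zic1*, which encodes a zinc finger factor, had 16 and 31 against 2 and 0 UMIs, from 1 and 2 against 1 and 0 cells (34.1 times fewer relative to all UMIs, 95% counting interval 8.93 to 290, adjusted p = 1.55e-05, edgeR). *Zic1* met the filter on low counts only through the heterozygous retinas, where it was high, so its p is no separate support. *Alcam* and *Id2* likewise met it only with the heterozygous retinas, since a knockout was too low for each. Their p-values are no separate support either. *Alcam*, a cell adhesion molecule of growing axons, stood at 85.6 and 57.4 against 5.63 and 29.0 CPM (log2 fold change -2.27, SE 0.43, adjusted p = 0.00383). *Cwc22*, a splicing factor gene, stood at 197 and 182 against 28.1 and 127 CPM (log2 fold change -1.45, adjusted p = 0.00729). *Mt3*, a metallothionein gene of neurons, stood at 95.6 and 108 against 43.6 and 33.5 CPM (adjusted p = 0.0157), and *Id2*, an inhibitor of basic helix-loop-helix factors, at 59.7 and 87.8 against 26.7 and 20.1 CPM (adjusted p = 0.0336). Both knockouts were below both heterozygous retinas for each, although KO 2 lay nearer to the heterozygous values than KO 1 for *Alcam* and *Cwc22*. The wild type was nearer to the knockouts for *Zic1*, *Cwc22*, *Mt3* and *Id2*, and nearer to the heterozygous retinas for *Alcam*. It lay between the knockouts for *Mt3* and for *Cwc22*, with 39.0 CPM, and was the lowest retina for *Id2*, with 15.0 CPM. Of all 19 genes called in ganglion cells, the wild type was nearer to the knockouts for 5. The share over all genes tested in this type is not given here, so this count cannot be called high or low.

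Of the 11 genes of the ganglion cell list, all tested, only *Pou4f1* was called. This homeodomain factor of differentiating ganglion cells stood at 922 and 712 against 580 and 516 CPM (log2 fold change -0.58, SE 0.14, adjusted p = 0.0498, edgeR). *Pou4f1* only just passed, and it was not called by DESeq2 or by edgeR scaled with the size factors of DESeq2. *Stmn2*, a growth cone protein, stood at 4690 and 4152 against 4160 and 4263 CPM, and *Sncg*, gamma-synuclein, at 3204 and 3257 against 2986 and 3580 CPM, both with overlap. *Jun*, an AP-1 subunit that responds to axon injury, was lower as well, at 209 and 118 against 101 and 62.5 CPM (adjusted p = 0.0381). Of the 8 immediate early genes tested 6 were lower at an unadjusted p under 0.05, against 3.22% of all genes. The other called genes were *Fstl5* and *Pcdh9*, which were higher, and *Cdk14*, *Khdrbs3* and *Runx1t1*, which were lower, with log2 fold changes between -0.92 and 1.49. By DESeq2 3 genes were called, *Gm8797*, *Pcp4* and *Zic1*. Of the 19 calls, 11 remained without Het 1, 15 without Het 2, 14 without KO 1 and 9 without KO 2. The plot of ganglion cell genes gives the values of every retina.

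**Figure D5:**
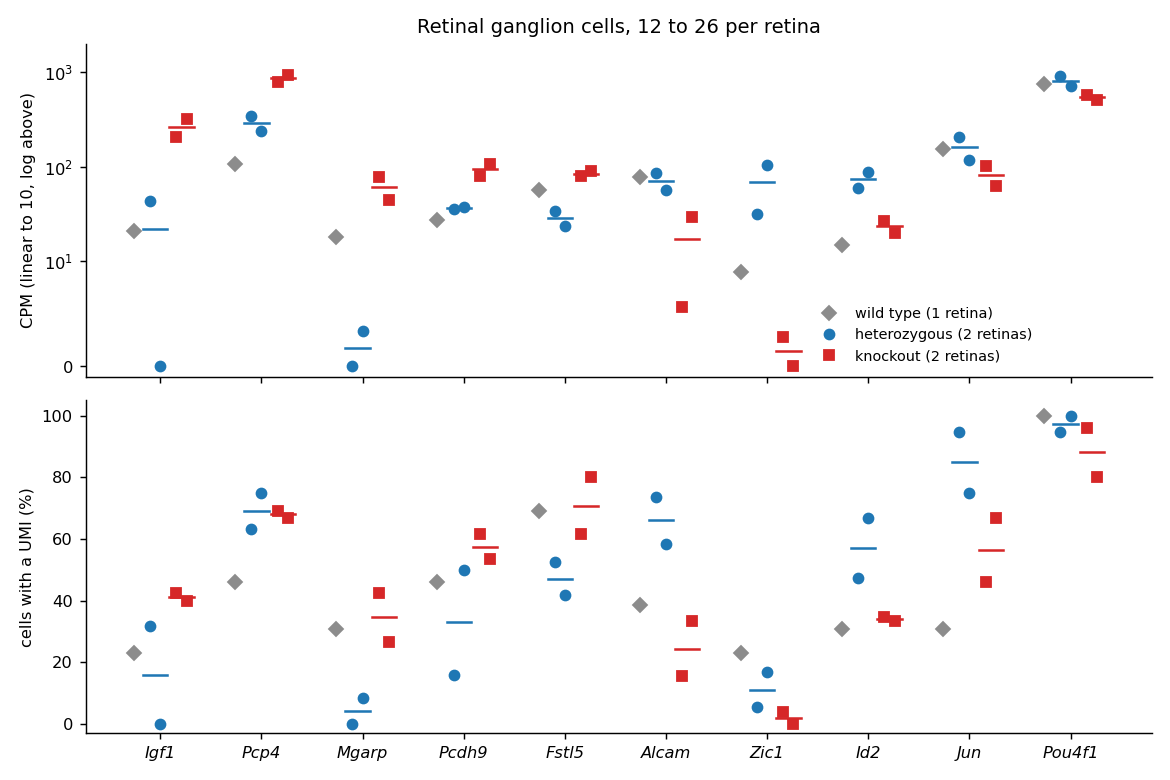
Top, CPM of 10 genes called in ganglion cells, on an axis that is linear to 10 and logarithmic above. Bottom, the share of ganglion cells with a UMI of the gene, in percent. Points are P0 retinas, coloured by genotype, and lines are genotype means. *Igf1*, *Pcp4* and *Mgarp* are higher and *Alcam* and *Zic1* lower in both knockouts than in both heterozygous retinas at the top, whereas the shares of cells with *Pcp4* overlap.

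Over all cells of a retina together, no gene was called by edgeR among 13145 (0%). An unadjusted p under 0.05 was found for 641 genes (4.88%), and DESeq2 called 6. *Gm8797*, at 435 and 226 against 18.8 and 20.1 CPM over all cells, just missed the threshold (log2 difference -4.09, SE 0.32, adjusted p = 0.0538, edgeR). The largest rise without overlap was that of *Igf1*, at 2.13 and 0.0931 against 16.7 and 14.5 CPM over all cells, which was not called (adjusted p = 0.554). 2410018L13Rik was at 1.48 and 1.68 against 8.16 and 7.83 CPM, with 4.75 CPM in the wild type (log2 difference 2.32, SE 0.24, adjusted p = 0.172).

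Several other groups of genes held no call. Across the 5 types, none of the tested members was called in the lists of inhibitory G proteins and cyclic AMP, other neuropeptides, hedgehog, proneural, cell cycle exit, protein folding stress, apoptosis, glycolysis, ribosomal, sex-linked and mitochondrially encoded genes. For the 22 genes of inhibitory G proteins and cyclic AMP, through which the receptor signals, 12 to 18 could be tested per type, and their median log2 differences lay between -0.0885 and 0.0339. At an unadjusted p under 0.05 they held 3 of 15 genes lower in precursors, against 3.78% of all genes tested. At the same limit 3 of 9 proneural genes were higher and 1 lower in precursors, against 3.44% and 3.78% of all genes. In amacrine cells 4 of 17 glycolysis genes were lower, against 2.56% of all genes. In ganglion cells 2 of 5 apoptosis genes were lower, against 3.22% of all genes. *Gnao1*, which encodes an inhibitory alpha subunit of neurons, stood at 546 and 503 against 508 and 478 CPM in ganglion cells. Of 16 other neuropeptide and receptor genes, 9 were in the table. *Gal*, which encodes galanin, had the largest difference upwards without overlap in amacrine cells, at 2.80 and 1.61 against 8.13 and 27.1 CPM (log2 difference 3.06, adjusted p = 0.381, edgeR), whereas in ganglion cells it stood at 85.6 and 165 against 108 and 22.3 CPM. Summed glycolysis genes were highest in Het 1 in primary progenitors, with 5974 CPM, against 4445 to 5019 CPM in the other 3 retinas compared, without a separation by genotype. In a list of 11 genes that the study chose on these retinas, which is no independent evidence, *Gm8797* was called in each type and *Cwc22* in ganglion cells.

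Whether the knockout difference of a type was unlike that in primary progenitors was tested in a fit of both types with the retina as a block, which was added after the data were seen. It was so for 6 of 10997 genes in neurogenic progenitors (0.0546%), 34 of 11593 in photoreceptor precursors (0.293%), 3 of 11874 in amacrine cells (0.0253%) and 11 of 11816 in ganglion cells (0.0931%). *Gngt2*, *Hes1*, *Ptn* and *Crym* were among those of photoreceptor precursors. They had been called on the same counts, so this is no separate support. In primary progenitors *Gngt2* stood at 33.1 and 24.9 against 23.6 and 20.1 CPM and *Hes1* at 778 and 872 against 727 and 764 CPM, neither of them called. *Gm8797* was not among the genes whose difference depended on the type.

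Genes near *Sstr2* were examined because the mutation was made on one strain and crossed to another. Within 10 Mb of *Sstr2*, 95 to 177 genes were tested per type and none was called. In primary progenitors 10 of 177 (5.65%) had an unadjusted p under 0.05, against 3.57% of all genes, and in neurogenic progenitors 9.23%, against 4.09%. The shares were 6.75% against 7.22% in photoreceptor precursors, 4.64% against 4.38% in amacrine cells and 2.11% against 5.94% in ganglion cells. The level ran in the order wild type, heterozygous, knockout for 23 of these 177 genes, against 6.72% of all genes, and in neurogenic progenitors for 17 of 130 (13.1%), against 6.93% of all genes. In photoreceptor precursors, amacrine cells and ganglion cells it did so for 9.20%, 7.95% and 10.5% of the genes near *Sstr2* and for 7.35%, 5.70% and 7.17% of the others. *Mettl23*, which encodes a methyltransferase, stood at 69.2 and 68.1 against 101 and 96.7 CPM in primary progenitors, with 44.3 CPM in the wild type (log2 difference of knockout and heterozygous 0.52, SE 0.08, adjusted p = 0.541, edgeR). *Mxra7*, a matrix remodelling associated gene, stood at 239.8 and 218 against 314 and 318 CPM in neurogenic progenitors, with 119.7 CPM in the wild type (log2 difference 0.48, SE 0.10, adjusted p = 0.837). Both were lowest in the wild type and highest in the knockouts in these types. Both are on the list of 11 genes that the study chose on these retinas, which is no independent evidence. Over all P14 cells *Mettl23* overlapped, at 67.2 and 71.0 against 60.4 and 80.4 CPM (log2 difference -0.03). *Mxra7* stood there at 142 and 136 against 177 and 177 CPM without overlap (log2 difference 0.29, adjusted p = 0.604, edgeR). Linkage and genotype cannot be told apart in this design.

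Of the 26 different genes called in some type at P0, 23 could be tested over all cells at P14, in other animals. *Gm8797* was the only 1 called there, and 7 had an unadjusted p under 0.05, against 8.22% of all genes. Of these, *Gm8797*, *Mt3* and *Fstl5* differed in the direction of P0, whereas *Crym*, *Cdk14*, *Runx1t1* and *Vax2os* differed in the opposite direction. *Gngt2* stood at 309 and 385 against 556 and 332 CPM at P14, where the groups overlapped (adjusted p = 0.765, edgeR). *Hes1* stood at 467 and 280 against 506 and 546 CPM, *Igf1* at 23.1 and 32.4 against 28.9 and 36.1 CPM and *Ypel3* at 199 and 122 against 143 and 162 CPM. Het 2 held only 304 cells at P14, and these sums mix all types of the mature retina.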

How the data were processed

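The deposited files hold UMI counts per gene and cell, which the authors made from pooled 10x 3′ libraries (Cell Ranger 3.1.0 and the mm10 genome, per the submitters' notes), with the retina barcode, genotype and cell type of each cell. Only these counts were used; the authors' cell types came from cluster markers. Counts were summed per retina and cell type and tested with edgeR 4.0.16 in R 4.3.3 (filterByExpr, TMM, quasi-likelihood test, Benjamini-Hochberg threshold 0.05) on the 2 knockout and 2 heterozygous retinas. SEs were derived from the F statistic. DESeq2 1.42.0 was an alternative. The script was tested on simulated data. Shares were compared by exact permutation. *Gm8797* and *Ubb* were aligned with blastn 2.17.0. Doublets were not called. Cells with 3 or more progenitor markers, and the 5% of cells with the most UMIs, were left out in alternatives. P0 and P14 libraries shared 7 cell barcodes.

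Named genes were *Sstr2*, every called gene up to 12 per comparison, otherwise the 6 largest rises and 6 largest falls, and the 3 largest rises and falls without overlap among genes with 50 or more UMIs, with called or most abundant members of each gene list; others are marked as chosen after their values were seen or serve a stated list. The members and lists were chosen with earlier results of these data known. Intervals cover counting error only.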

Additional observations from a re-analysis of the deposited data

Results flagged for a closer look

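For 9 pairs of a cell type and a gene already called in it, the difference between knockout and heterozygous retinas was itself different from that in primary progenitors, in an edgeR fit over both types with the retina as a block. This comparison was added after the data were seen. It used the counts on which these genes had been called, so its p-values are no separate support for them. In photoreceptor precursors 34 of 11593 genes differed in this way (0.293%). Among them the log2 difference of *Gngt2* was 1.31 higher than in primary progenitors (adjusted p = 3.97e-05), and that of *Crym* was -0.89 (adjusted p = 0.00211), of *Ptn* -0.85 (adjusted p = 0.00211) and of *Hes1* -0.78 (adjusted p = 0.00165) relative to primary progenitors. *Ypel3* did not pass (adjusted p = 0.144). In amacrine cells 3 of 11874 genes differed (0.0253%), with *Hes1* at -1.42 (adjusted p = 0.0104), and *Fabp7* did not pass (adjusted p = 0.709).

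In ganglion cells 11 of 11816 genes differed from primary progenitors (0.0931%). The value was 2.65 for *Vax2os* (adjusted p = 0.00707) and -1.61 for *Id2* (adjusted p = 0.00986). For *Mgarp* it was 5.83 (adjusted p = 4.37e-12) and for *Zic1* -4.99 (adjusted p = 1.18e-08). *Mgarp* and *Zic1* had at most 2 UMIs in 1 genotype, so their fitted values depend on the prior count and are no bound. *Vax2os* and *Id2*, like *Mgarp* and *Zic1*, met the filter on low counts in ganglion cells only with the genotype where they were high. Their p-values are no separate support. *Gm8797* did not differ between types by this test (adjusted p = 0.964 to 1).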

How the results depend on the processing

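No paired analysis was possible because the deposited names of the retinas carry no number shared between genotypes; the block named here pairs retinas by measured *Xist* level instead. With DESeq2, 3 genes were called in primary progenitors, 3 in ganglion cells and 6 over all cells. Without a filter on low counts the calls were 2 in primary progenitors, 121 in photoreceptor precursors, 60 in amacrine cells and 39 in ganglion cells, with 51 list genes and 4 genes near *Sstr2*. With all 5 retinas in the fit, 41 genes were called in ganglion cells and 10 list genes in all. With each heterozygous retina paired to the knockout of like *Xist* level as a block, 20 genes were called in neurogenic progenitors, 49 in amacrine cells, 44 in ganglion cells and 1 over all cells, with 33 list genes and 3 near *Sstr2*, and *Sstr2* in neurogenic progenitors passed at 0.62. Without the 5% of cells with the most UMIs, 3 genes were called in photoreceptor precursors, *Gm8797* and *Hes1* among them, and 2 over all cells. Without progenitor-marker cells 1 was called in amacrine cells, where *Hes1* turned to 0.10.

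Leaving out 1 retina at a time, where the lone retina is assumed to vary like the other group, gave 2 to 39 calls in primary progenitors, 2 to 24 in neurogenic progenitors, 14 to 202 in photoreceptor precursors, 22 to 64 in amacrine cells, 34 to 52 in ganglion cells, 0 to 21 over all cells, 25 to 68 list genes, 0 to 3 genes near *Sstr2* and 0 to 1 of the P0 genes at P14. *Sstr2* in neurogenic progenitors ran from 0.43 to 0.83. Differences in share ran from -1.82 to -0.165 points for primary progenitors, -1.08 to 1.25 for neurogenic progenitors, -3.76 to 0.338 for photoreceptor precursors, 0.142 to 3.92 for amacrine cells and -0.0366 to 1.20 for ganglion cells. The cause of these changes was not tested. Leaving out the largest ganglion cells could not be fitted, since it leaves a retina without cells.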

Other observations

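*Slc15a2*, which encodes a peptide transporter, differed between the heterozygous retinas. It had 0 CPM in the neurogenic progenitors, photoreceptor precursors and amacrine cells of Het 1 and 0.861 CPM in its primary progenitors, whereas Het 2 had 11.4, 20.7, 18.8 and 6.40 CPM in the same order. The knockouts held 10.5 to 45.5 CPM in these types, above both, and the gene was called in none of them.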
